A study of Homo sapiens with 18 samples.

Results

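The genes described here are 34 imprinted genes, chosen by name from a list that covers the main human imprinted domains, and followed over 6 groups of cultured tumour cells. All 34 were found by symbol among the 55765 gene symbols of the deposited table. A mean of at least 10 normalized counts over the 18 libraries was required for testing, which 21 of the 34 reached, and the other 13 are given below by their levels. The cells are G401, an established malignant rhabdoid tumour line, in which SMARCB1, the chromatin remodelling subunit whose loss defines this tumour, had 0 reads in every library. The RB1-intact control (WT) was made by editing the AAVS1 safe harbour locus, and E1 and F2 are 2 clones edited with CRISPR/Cas9 so that both copies of RB1, a tumour suppressor that restrains E2F factors, are disrupted. Each of these lines was grown for 11 days with tazemetostat at 10 µM or with its solvent DMSO, in biological triplicate, which gave WT DMSO, WT tazemetostat, E1 DMSO, E1 tazemetostat, F2 DMSO and F2 tazemetostat with 3 poly(A)-selected RNA-seq libraries each. Every RB1-disrupted line is 1 clone, so that RB1 status and clone cannot be told apart in a comparison of 1 clone with WT. A change in bulk RNA can come from fewer cells of a kind or from less RNA per cell, and these cannot be told apart.

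Imprinted genes are transcribed from 1 parental copy, and the other copy is held silent by a mark set in the germ line, mostly DNA methylation at an imprinting control region. They lie in domains where growth-promoting genes are often read from the paternal copy and growth-limiting genes from the maternal copy. IGF2, a fetal growth factor, and H19, a noncoding RNA, share the best known domain and its enhancers, and both are active in embryonic tissues, fetal kidney among them. Tazemetostat inhibits EZH2, the enzyme of the Polycomb complex PRC2 that places a repressive methyl mark on histone H3. Total RNA of a gene was measured here, and which parental copy it came from was not.

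Promoter sequences are shown for 4 members, because ZDBF2 and TFPI2 rose with tazemetostat in all lines while H19 and NAP1L5 responded differently between the lines. They are RefSeq sequences on GRCh38.p14, from 250 bases before to 50 bases after an annotated start, printed in lower case with CG dinucleotides, the sites of DNA methylation, in capitals. ZDBF2 has 2 entries in this table. The H19 window is taken at the start annotated in this table. That start lies upstream of the miR-675 sequences (chr11:1996768 to 1996822, minus strand). Whether it is the main start of H19 in these cells was not measured.
H19 promoter, chr11:2001217-2001516, minus strand: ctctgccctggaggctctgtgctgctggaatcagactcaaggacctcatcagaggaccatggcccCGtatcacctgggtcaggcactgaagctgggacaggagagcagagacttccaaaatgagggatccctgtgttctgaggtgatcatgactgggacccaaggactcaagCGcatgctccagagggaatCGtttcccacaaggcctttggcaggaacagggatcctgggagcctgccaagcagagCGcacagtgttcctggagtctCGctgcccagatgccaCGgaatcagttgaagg
ZDBF2 upstream start, chr2:206274413-206274712, plus strand: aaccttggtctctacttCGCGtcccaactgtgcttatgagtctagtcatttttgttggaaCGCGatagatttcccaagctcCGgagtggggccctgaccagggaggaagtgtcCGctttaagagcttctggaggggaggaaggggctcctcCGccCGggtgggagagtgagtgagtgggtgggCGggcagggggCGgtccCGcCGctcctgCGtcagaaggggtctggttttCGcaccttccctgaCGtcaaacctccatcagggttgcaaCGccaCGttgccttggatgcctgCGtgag
ZDBF2 downstream start, chr2:206274760-206275059, plus strand: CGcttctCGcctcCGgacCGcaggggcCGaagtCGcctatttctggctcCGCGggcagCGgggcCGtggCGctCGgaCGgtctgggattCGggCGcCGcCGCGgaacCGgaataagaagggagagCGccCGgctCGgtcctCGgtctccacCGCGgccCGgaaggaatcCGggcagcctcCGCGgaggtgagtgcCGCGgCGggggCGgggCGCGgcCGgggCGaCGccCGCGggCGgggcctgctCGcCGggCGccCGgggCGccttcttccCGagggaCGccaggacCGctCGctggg
TFPI2 promoter, chr7:93890704-93891003, minus strand: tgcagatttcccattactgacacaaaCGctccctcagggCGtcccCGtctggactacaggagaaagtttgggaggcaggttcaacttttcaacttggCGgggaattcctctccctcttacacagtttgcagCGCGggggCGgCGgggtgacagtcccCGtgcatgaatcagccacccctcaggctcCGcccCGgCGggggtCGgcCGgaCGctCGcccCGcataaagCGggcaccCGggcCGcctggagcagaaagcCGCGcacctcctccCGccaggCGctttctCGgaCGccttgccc
NAP1L5 promoter, chr4:88697780-88698079, minus strand: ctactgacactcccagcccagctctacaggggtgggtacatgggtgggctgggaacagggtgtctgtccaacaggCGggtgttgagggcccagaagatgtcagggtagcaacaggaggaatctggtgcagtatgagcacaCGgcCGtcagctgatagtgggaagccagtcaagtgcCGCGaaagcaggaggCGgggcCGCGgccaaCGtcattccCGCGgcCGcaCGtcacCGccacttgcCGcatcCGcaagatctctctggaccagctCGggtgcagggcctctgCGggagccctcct

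The H19 window held 6 CG dinucleotides, a number that 66.3% of the 35116 promoters in the table reach. The TFPI2 window held 26, reached by 30.1% of promoters. The ZDBF2 windows held 18 and 50, reached by 44.5% and 1.29%. The NAP1L5 window held 18. The median over all promoters was 14. The letters TGCCGC, the core recognised by the imprint-protecting zinc finger protein ZFP57, were searched on both strands. They stood in 22 of the 53 promoter windows of members, some of which overlap, and in 16.7% of all promoter windows. The 53 windows belong to 23 members. Windows of the same member are not independent and CG content was not allowed for, so these shares are no test of enrichment. ZFP57 transcript was at 0 in the DMSO libraries and at most 3.0 normalized counts in any library. Members without an entry were IGF2, PHLDA2, PEG10, PEG3, KCNQ1OT1, DLK1, MEG8, SGCE, NNAT, ZIM2 and ASCL2. H19 is also the precursor of miR-675, whose mature sequences are shown with the seed, bases 2 to 8, in capitals. Mature microRNA was not measured by these libraries.
hsa-miR-675-5p: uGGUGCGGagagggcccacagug
hsa-miR-675-3p: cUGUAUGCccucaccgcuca

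RB1 transcript lay between 504.9 and 1044.9 normalized counts in the clone libraries and between 2300.4 and 2828.3 in the WT libraries, which checks the labels. RB1 is itself imprinted. EZH2 transcript was at 832.5 to 916.5 in WT tazemetostat and at 2382.8 to 3579.0 in all other groups. Library depth was 25709489 to 39314860 reads. Of 7 markers of other cell types, PTPRC and CD3E had at most 2 reads in any library, while CDH1, a gene of epithelial cells, reached 421.8 normalized counts. The summed level of these 7 markers was 248.9 to 298.8 in WT DMSO, 310.3 to 449.9 in WT tazemetostat, 16.1 to 38.0 in E1 DMSO, 126.3 to 173.1 in E1 tazemetostat, 135.9 to 187.5 in F2 DMSO and 294.1 to 319.9 in F2 tazemetostat. The sum was thus higher with tazemetostat in each line, and its part in the results below was not tested. Its largest term was CDH1. EPCAM, also a marker of epithelial cells, did not rise with it. EPCAM had 8.0, 9.7 and 9.7 normalized counts in E1 DMSO and 4.3, 4.8 and 0.9 in E1 tazemetostat. In F2 it had 19.5, 11.4 and 18.2 in DMSO and 8.7, 4.0 and 8.3 with tazemetostat. In WT the groups overlapped, with 16.6, 11.3 and 14.2 in DMSO and 9.9, 10.3 and 13.5 with tazemetostat. CDH5, a gene of endothelial cells, had at most 1 read in a DMSO library and 3.9 to 28.3 normalized counts with tazemetostat.

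The first comparison was tazemetostat against DMSO within each line. IGF2, PHLDA2, TFPI2 and ZDBF2 rose in all 3 lines, H19 rose in WT and F2, and BLCAP rose in WT. PEG10 fell in WT and F2, DIRAS3 fell in WT and NAP1L5 fell in F2. A gene was called when its limma adjusted p, over all 16154 tested genes of the contrast, was under 0.05 and its change was at least 1 in size on the log2(normalized count + 1) scale. In WT, 6 of 21 tested members were higher and 2 lower, where 14.5% of all tested genes were higher and 6.77% lower. In E1, 4 were higher and 0 lower, against 11.3% and 3.78% of all genes. In F2, 5 were higher and 2 lower, against 13.3% and 3.71%. The 0 lower in E1 compares with 4 lower members at an unadjusted p under 0.05, and with 0 by edgeR and 0 by DESeq2. At a limma adjusted p under 0.05 with no fold limit, 3182 of all 16154 genes were lower in E1. With no filter on low values, limma called ZIM2 (-2.55, adjusted p 0.0039) and USP29 (-1.42, adjusted p 0.0029) lower in E1. That setting also added RTL1 (3.48) and DLK1 (2.07) as higher, and it called 872 of 35344 genes lower and 3210 higher. With every library scaled to the same total read count, 57.9% of all calls in WT were higher in place of 68.2%, and the median log2 change of all tested genes moved from 0.03 to -0.12. The median log2 change of the 21 members was -0.19 in WT, 0.01 in clone E1 and -0.09 in F2, and that of all tested genes was 0.03, 0.02 and 0.02. Setting members at the floor to their lower bounds leaves the members' medians as they are, since those genes stay on the same side. H19 and TFPI2 passed the filter only through their treated groups, since both had a mean under 10 in the DMSO libraries, so that a count or median over the tested members favours a rise.

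**Figure D1:**
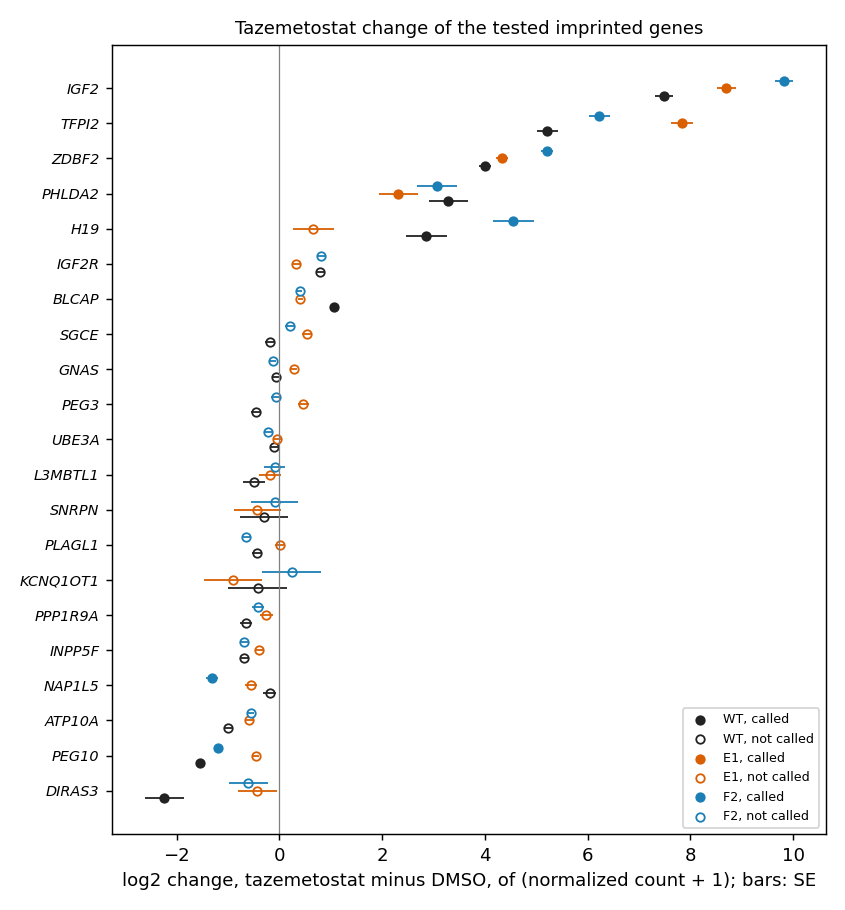
Log2 change with tazemetostat of the 21 tested imprinted genes in WT, E1 and F2 (x axis, on the log2(normalized count + 1) scale, bars showing the standard error), with filled points for called changes and open points for the others. IGF2 lies farthest right in every line, and the points of H19 are spread from 0.66 in E1 to 4.55 in F2.

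Members can also be sorted by the parental copy each gene was assigned to. The assignment was made by gene and not by tissue. It was not measured here and may not hold for every member in these cells. Of 7 tested genes assigned to the maternal copy, IGF2R and UBE3A among them, 3 were higher in WT (H19, PHLDA2 and TFPI2). In clone E1 2 were higher and in F2 3. By limma 0 were lower in any line, while edgeR called ATP10A lower in WT. Of 11 tested genes of the paternal copy, 2 were higher in each line, IGF2 and ZDBF2. Among them 2 were lower in WT, 0 in clone E1 and 2 in F2. The remaining 3, BLCAP, GNAS and INPP5F, use different copies for different transcripts or tissues. Among all tested genes, 14.5%, 11.3% and 13.3% were higher and 6.77%, 3.78% and 3.71% lower in the lines in that order, and H19 and TFPI2, which passed the filter only through treated groups, are both in the maternal class.

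IGF2, the ligand of the domain at 11p15, was the member with the greatest fitted change in each line. It was at 18.3, 33.0 and 19.9 normalized counts in the WT DMSO libraries and at 4284.8, 4167.7 and 4469.1 in the WT tazemetostat libraries. E1 had 14.3, 10.6 and 14.6 in DMSO and 6184.7, 5205.1 and 6161.9 with tazemetostat. F2 had 9.2, 10.4 and 14.6 in DMSO and 11529.5, 11125.4 and 10310.0 with tazemetostat. The treated and untreated libraries did not overlap in any line, and under tazemetostat F2 stood above E1 and E1 above WT in every library. The ratio of group means was 181-fold in WT, 444-fold in clone E1 and 965-fold in F2. The log2 changes were 7.49 ± 0.18 (SE), 8.70 ± 0.18 and 9.82 ± 0.18, with limma adjusted p of 9.2e-17, 1.3e-17 and 2.1e-18.

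H19, the maternally expressed neighbour of IGF2, was low in all DMSO libraries and differed between the lines under treatment. A window at an annotated start of H19 is shown above. WT had 7.0, 11.3 and 9.5 normalized counts in DMSO and 86.7, 63.6 and 69.0 with tazemetostat. F2 had 13.3, 8.3 and 4.9 in DMSO and 218.5, 199.8 and 224.8 with tazemetostat. E1 had 14.3, 12.5 and 2.9 in DMSO and 10.6, 13.5 and 17.9 with tazemetostat, and these groups overlapped. The log2 changes were 2.86 ± 0.40 in WT (7.90-fold, adjusted p 5.7e-06), 4.55 ± 0.40 in F2 (24.3-fold, adjusted p 1.5e-08) and 0.66 ± 0.40 in E1 (1.41-fold, adjusted p 0.20). In E1, therefore, IGF2 passed the threshold while H19 did not.

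The response of a line was also compared with that of another line directly, as a difference of log2 changes. For H19 the E1 response was below that of WT by a log2 difference of -2.20 ± 0.57 (limma adjusted p 0.0059) and below that of F2 by -3.89 ± 0.57 (adjusted p 9.5e-05). The F2 response of H19 exceeded that of WT by 1.68 ± 0.57 (adjusted p 0.036). This last call was lost, with adjusted p of 0.059 to 0.091, when any 1 of 9 libraries was left out: F2 DMSO replicates 2 and 3, all 3 F2 tazemetostat libraries, WT DMSO replicates 2 and 3, and WT tazemetostat replicates 2 and 3. It was also lost with no filter on low values (limma adjusted p 0.076). For IGF2 the response exceeded that of WT by 1.21 ± 0.26 in E1 (adjusted p 0.0014) and by 2.32 ± 0.26 in F2 (adjusted p 2.5e-06), and E1 lay below F2 by -1.12 ± 0.26 (adjusted p 0.0057). The difference between E1 and WT became 0.95 without WT DMSO replicate 2, and that between E1 and F2 became -0.99 without F2 DMSO replicate 1. These differences contain the DMSO levels, which for IGF2 rest on 9 to 35 reads per library. The 3 lines' responses share libraries with each other in these differences, and the contrast of E1 with F2 was added after values of H19 and NAP1L5 had been seen.

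**Figure D2:**
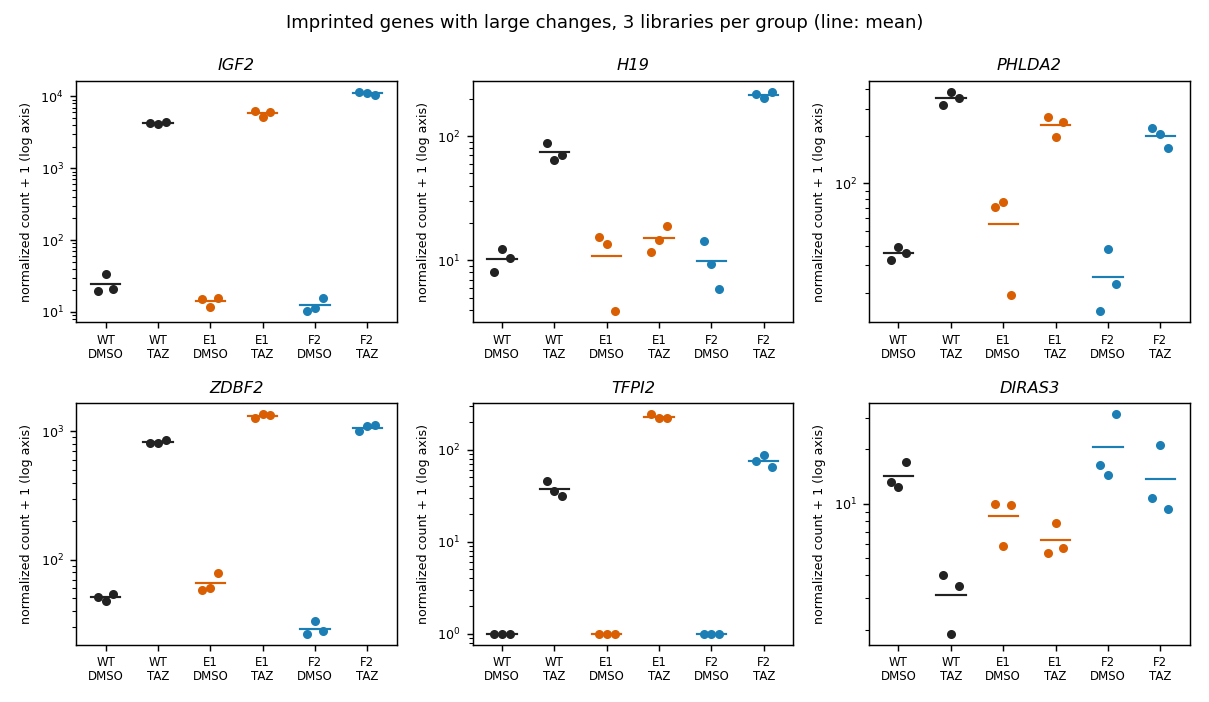
Normalized count + 1 (log axis) of IGF2, H19, PHLDA2, ZDBF2, TFPI2 and DIRAS3 in each of the 3 libraries of the 6 groups, with a line at the group mean. H19 is at 10.6 to 17.9 normalized counts in E1 tazemetostat, overlapping its DMSO libraries, while IGF2 is at 4167.7 or more in all treated libraries.

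PHLDA2, a maternally expressed protein with a pleckstrin homology domain that limits placental growth, lies at the other end of the 11p15 cluster. It had 31.4, 38.6 and 35.0 normalized counts in WT DMSO and 317.3, 382.5 and 352.2 in WT tazemetostat. In E1 the values were 69.7, 75.3 and 18.5 in DMSO and 263.0, 198.3 and 246.9 with tazemetostat. In F2 they were 14.3, 37.3 and 21.8 in DMSO and 224.3, 206.9 and 168.3 with tazemetostat. Treated libraries stood above untreated ones in each line, with ratios of 10.0 in WT, 4.33 in clone E1 and 8.15 in F2. The log2 changes were 3.29 ± 0.38, 2.32 ± 0.38 and 3.07 ± 0.38, with limma adjusted p of 4.6e-07, 5.3e-05 and 1.5e-06. E1 DMSO replicate 3 stood apart from the other E1 DMSO libraries for this gene. Without that library PHLDA2 was called higher in E1 than in WT in DMSO (1.03), higher in E1 than in F2 in DMSO (1.63), and with a smaller response in E1 than in WT (-1.61) and F2 (-1.39), none of which limma called with it. With all libraries, edgeR and DESeq2 called the DMSO difference from F2 (1.15 by each), and edgeR called the response difference from WT (-1.22). Without F2 DMSO replicate 2, limma called the DMSO difference of E1 from F2 (1.33).

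The other 2 members of 11p15 gave no call. KCNQ1OT1, the paternal noncoding RNA that runs antisense within KCNQ1, is described below with the genes of wide spread. ASCL2, a maternally expressed transcription factor, had at most 2 reads in any library. Values at this domain are uncertain where genes overlap: INS-IGF2 was listed at 0 in every library, IGF2-AS at 13.9 ± 1.5 (SD, n = 3), 17.4 ± 7.1 and 26.7 ± 3.9 in treated WT, E1 and F2 against 0 in DMSO. The library kit keeps the strand, and whether the counting used it is not given in the sources used here.

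TFPI2, a maternally expressed secreted inhibitor of serine proteases in the 7q21 domain, had 0 reads in all 9 DMSO libraries. With tazemetostat it reached 44.3, 34.6 and 30.8 normalized counts in WT, 241.7, 223.4 and 219.5 in clone E1, and 73.8, 85.8 and 63.8 in F2. The 3 treated groups did not overlap, with E1 highest and WT lowest. Against a floor of 3 reads per library, the rise was at least 13.2-fold in WT, at least 80.6-fold in clone E1 and at least 22.7-fold in F2, and limma gave adjusted p of 1.3e-13, 3.8e-16 and 8.6e-15. Under tazemetostat E1 exceeded WT by a log2 difference of 2.62 ± 0.21 (6.24-fold, adjusted p 1.1e-08). F2 exceeded WT by 1.01 ± 0.21 (2.04-fold, adjusted p 5.9e-04), which fell under the fold limit, to between 0.90 and 0.98, without F2 tazemetostat replicate 2 or WT tazemetostat replicate 2 or 3. A pseudocount of 5 also took it under the limit (0.94). The response differences of TFPI2 were 2.62 for E1 minus WT, 1.01 for F2 minus WT and 1.61 for E1 minus F2. They were called by limma but not by edgeR (adjusted p of 1 for each) or DESeq2 (0.24, 0.80 and 0.58), and the DMSO groups hold no reads on which a fold could rest. That of F2 minus WT was also lost without each of the same 3 libraries, at 0.91, 0.98 and 0.90. A pseudocount of 5 (0.94) and no filter on low values (limma adjusted p 0.14) ended that call too.

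The other tested members of 7q21 were PEG10, SGCE and PPP1R9A. PEG10, a paternally expressed gene derived from a retrotransposon and needed in placenta, was at 15507.4, 16530.8 and 15055.0 normalized counts in WT DMSO and at 5236.7, 5662.3 and 5162.4 with tazemetostat. E1 had 10253.3, 8532.8 and 10209.0 in DMSO and 6466.9, 7104.5 and 7406.5 with tazemetostat. F2 had 20635.2, 21540.4 and 19702.9 in DMSO and 8927.4, 8862.6 and 9151.0 with tazemetostat. The treated libraries lay below the untreated ones in each line, and the DMSO level was lowest in E1 and highest in F2 without overlap. The log2 change was -1.55 ± 0.07 in WT (adjusted p 1.2e-12), -1.20 ± 0.07 in F2 (adjusted p 5.7e-11) and -0.46 ± 0.07 in E1 (adjusted p 3.4e-05, under the fold limit). The response difference of E1 minus WT was 1.09 ± 0.10 (adjusted p 2.8e-07). SGCE, the epsilon-sarcoglycan gene next to PEG10, ranged from 671.2 to 1225.8 normalized counts over all libraries and had log2 changes of -0.19, 0.53 and 0.21 in WT, E1 and F2. PPP1R9A, which encodes neurabin-I, ranged from 1056.0 to 2089.5 and had -0.65, -0.25 and -0.41. Neither was called.

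ZDBF2, a paternally expressed zinc finger gene on chromosome 2, had 50.7, 47.1 and 53.0 normalized counts in WT DMSO and 811.0, 811.8 and 858.3 with tazemetostat. E1 went from 57.2, 59.9 and 77.9 to 1261.6, 1357.8 and 1332.3. F2 went from 25.6, 32.2 and 26.7 to 1005.9, 1099.1 and 1112.8. Before treatment F2 was lowest, and under treatment WT was lowest, in every library. The ratios were 16.5 in WT, 20.3 in clone E1 and 38.1 in F2, with log2 changes of 4.01 ± 0.12, 4.33 ± 0.12 and 5.21 ± 0.12 and limma adjusted p of 1.1e-15, 3.9e-16 and 2.6e-17. The F2 response exceeded that of WT by 1.19 ± 0.17 (adjusted p 3.1e-05). ADAM23, the gene beside ZDBF2 and no member of the list, was looked up after the ZDBF2 values had been seen. It had 6.8 to 27.0 normalized counts in the DMSO libraries and 3800.4 to 4800.5 in the treated ones, with ratios of 223 in WT, 335 in clone E1 and 176 in F2.

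NAP1L5, a paternally expressed gene of the nucleosome assembly protein family that lies inside an intron of another gene, fell with tazemetostat past the threshold in F2. WT had 783.5, 755.9 and 676.6 normalized counts in DMSO and 706.6, 686.5 and 554.2 with tazemetostat, which overlap. E1 had 657.2, 655.5 and 723.8 in DMSO and 397.1, 530.0 and 473.0 with tazemetostat. F2 had 667.9, 728.2 and 569.1 in DMSO and 259.2, 265.4 and 263.6 with tazemetostat. The log2 changes were -0.19 ± 0.12 in WT (adjusted p 0.15), -0.55 ± 0.12 in clone E1 (adjusted p 6.5e-04, under the fold limit) and -1.31 ± 0.12 in F2 (adjusted p 1.3e-08). The F2 response was below that of WT by -1.12 ± 0.16 (adjusted p 5.2e-05), and by -0.99 with every library scaled to the same total, which ends the call.

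DIRAS3, a small GTPase of the RAS family that restrains growth, was the tested member nearest the filter, with a mean of 10.1 over all libraries, and CPA4 at 9.77 was the nearest below it. The mean of DIRAS3 over the WT and E1 libraries together was under 10, so that it passed the filter only through F2. DIRAS3 had 12.2, 11.3 and 16.1 normalized counts in WT DMSO and 3.0, 0.9 and 2.5 with tazemetostat, which is at the floor. The fall in WT was at least 4.19-fold, with a log2 change of -2.24 ± 0.38 and a limma adjusted p of 4.4e-05. E1 had 8.9, 4.8 and 8.8 in DMSO and 4.3, 6.8 and 4.7 with tazemetostat. F2 had 15.4, 13.5 and 30.3 in DMSO and 9.7, 20.2 and 8.3 with tazemetostat. In both clones the groups overlapped, with log2 changes of -0.43 ± 0.38 (adjusted p 0.38) and -0.60 ± 0.38 (adjusted p 0.19). The response differences from WT were 1.81 ± 0.53 in E1 (adjusted p 0.013) and 1.63 ± 0.53 in F2 (adjusted p 0.030), and by DESeq2 the adjusted p were 0.072 and 0.082. The F2 difference was also lost, with limma adjusted p of 0.069 to 0.092, without F2 DMSO replicate 1 or 2, F2 tazemetostat replicate 2, WT DMSO replicate 3 or WT tazemetostat replicate 2. A pseudocount of 5 (0.88, limma adjusted p 0.09) and no filter on low values (limma adjusted p 0.096) ended the F2 call too.

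BLCAP, a small membrane protein gene whose intron holds the imprinted gene NNAT, was at 1506.7, 1521.1 and 1428.0 normalized counts in WT DMSO and at 3154.4, 3137.9 and 3047.9 with tazemetostat. E1 went from 1569.0, 1644.0 and 1651.2 to 2115.5, 2198.3 and 2165.1. F2 went from 1261.1, 1271.8 and 1145.5 to 1620.4, 1651.2 and 1593.8. Treated libraries were above untreated ones in each line. The log2 change was 1.07 ± 0.05 in WT (limma adjusted p 3.2e-12), and 0.92 with every library scaled to the same total, which ends the call. It was 0.41 ± 0.05 in E1 and 0.40 ± 0.05 in F2, under the fold limit. NNAT itself had 1 read in 1 library and 0 in the others.

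PEG3, a paternally expressed zinc finger gene of the 19q13 domain, gave no call with tazemetostat but differed between the lines. WT had 1845.6, 1832.1 and 1914.4 normalized counts in DMSO and 1365.8, 1306.6 and 1415.0 with tazemetostat. E1 had 2490.5, 1852.5 and 2663.3 in DMSO and 3050.3, 3244.7 and 3331.6 with tazemetostat. F2 had 2309.1, 2097.5 and 2402.6 in DMSO and 2005.9, 2310.3 and 2197.8 with tazemetostat. The treated libraries were below the untreated ones in WT, above them in clone E1 and overlapping in F2, with log2 changes of -0.45 ± 0.10, 0.47 ± 0.10 and -0.06 ± 0.10. Under tazemetostat E1 exceeded WT by 1.24 ± 0.10 (2.36-fold, limma adjusted p 1.0e-08). The response difference of E1 minus WT was 0.93 ± 0.14 (adjusted p 5.4e-05), and it passed the fold limit without E1 DMSO replicate 3 (1.03) and with every library scaled to the same total (1.01).

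**Figure D3:**
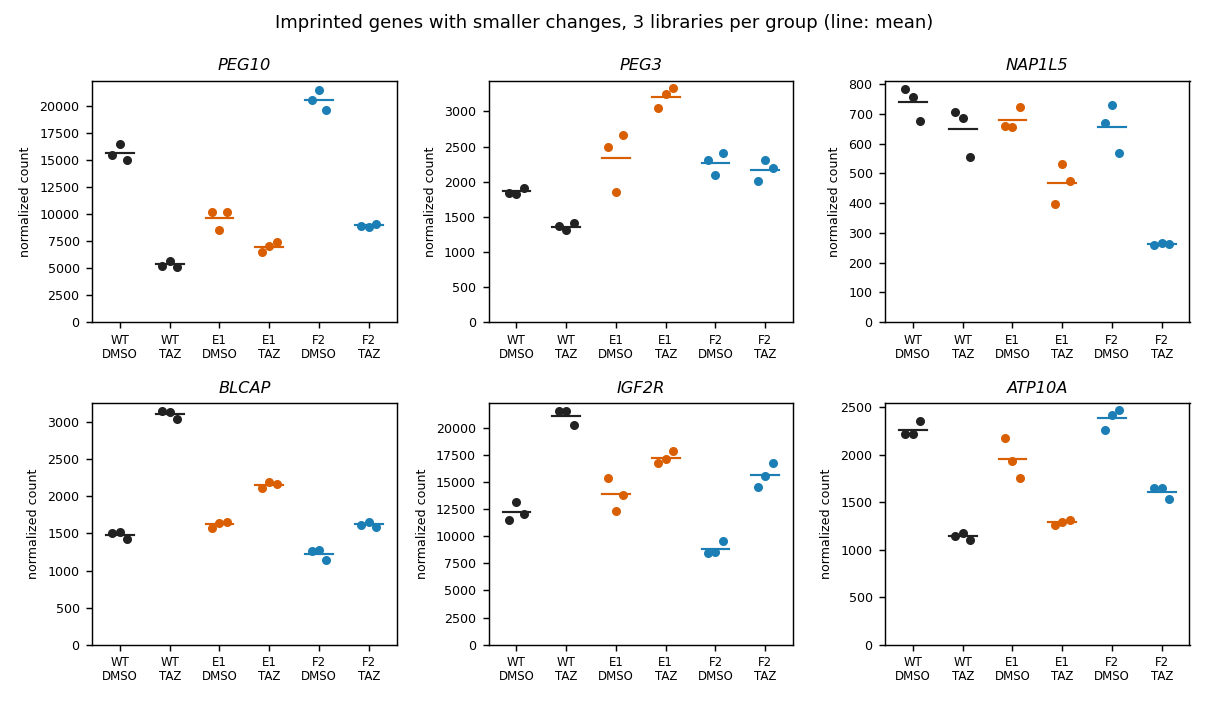
Normalized counts (linear axis from 0) of PEG10, PEG3, NAP1L5, BLCAP, IGF2R and ATP10A in each library of the 6 groups, with a line at the group mean. PEG10 is lower with tazemetostat in all 3 lines, NAP1L5 falls to 259.2 to 265.4 in F2, and BLCAP is at 3047.9 to 3154.4 in WT tazemetostat.

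The remaining tested members gave no call in any of the 11 contrasts. They were ATP10A, GNAS, IGF2R, INPP5F, KCNQ1OT1, L3MBTL1, PLAGL1, PPP1R9A, SGCE, SNRPN and UBE3A. IGF2R, the receptor that carries IGF2 to the lysosome, ranged from 8408.6 to 15381.7 normalized counts in DMSO and from 14535.4 to 21591.3 with tazemetostat over the lines. It was higher with tazemetostat in each line without overlap, by 0.79 ± 0.08 in WT, 0.32 ± 0.08 in clone E1 and 0.82 ± 0.08 in F2 on the log2 scale, all under the fold limit. ATP10A, a lipid-flipping ATPase of the 15q11 domain, lay just short of that limit in WT at -0.99 ± 0.07 (1.98-fold lower, limma adjusted p 4.3e-10), and passed it at -1.14 with the same total per library and also by edgeR. It passed without WT DMSO replicate 1 or WT tazemetostat replicate 2 (-1.01). Its changes were -0.59 in E1 and -0.56 in F2, and its levels ranged from 1749.6 to 2470.6 in DMSO and from 1102.2 to 1649.6 with tazemetostat, without overlap. INPP5F, a phosphoinositide phosphatase, had -0.68, -0.39 and -0.68 in WT, E1 and F2, with 744.3 to 951.7 normalized counts in DMSO and 484.0 to 708.5 with tazemetostat. PLAGL1, a zinc finger transcription factor, had -0.44 in WT, -0.64 in F2 and 0.01 in E1, where the sign turned under other scalings, and it ranged from 2309.1 to 4849.0 over all libraries. GNAS, the stimulatory G protein subunit, had -0.06, 0.28 and -0.12, and ranged from 20190.4 in E1 DMSO to 32353.7 in F2 DMSO. UBE3A, the ubiquitin ligase of Angelman syndrome, had -0.11, -0.05 and -0.21, and its sign in E1 turned without E1 DMSO replicate 3 or E1 tazemetostat replicate 1. It ranged from 4487.5 to 5803.3 over all libraries.

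KCNQ1OT1, SNRPN and L3MBTL1 varied widely within groups. KCNQ1OT1 had 313.6, 426.9 and 1220.8 normalized counts in WT DMSO, 283.8, 291.8 and 826.3 in WT tazemetostat, and 263.3, 226.1 and 1167.3 in F2 DMSO. Replicate 3 was thus the highest library in each of these groups. In F2 tazemetostat the values were 314.6, 585.4 and 629.0, and in E1 they were 784.9, 485.6 and 545.5 in DMSO and 501.5, 233.1 and 271.4 with tazemetostat, so that in E1 replicate 1 was highest. L3MBTL1, a chromatin-compacting protein gene, was also highest in WT DMSO replicate 3 at 744.8 and F2 DMSO replicate 3 at 742.6. SNRPN, which encodes a spliceosomal Sm protein at 15q11, was highest in WT DMSO replicate 3 at 82.3 and WT tazemetostat replicate 3 at 78.8. F2 DMSO replicate 3 and WT tazemetostat replicate 3 were the 2 shallowest libraries, with 25709489 and 28954561 reads. WT DMSO replicate 3, the highest library for all 3 genes, had 33838268 reads. E1 DMSO replicate 1, at rank 4 for each gene, had 37481152. The part of depth in this pattern was not tested. The log2 changes with tazemetostat of KCNQ1OT1 were -0.42 ± 0.57, -0.90 ± 0.57 and 0.24 ± 0.57 in WT, E1 and F2, and leaving out a library turned the sign in WT and in F2. Those of SNRPN were -0.30, -0.43 and -0.09, and those of L3MBTL1 were -0.49, -0.18 and -0.09. Leaving out a library turned the sign of SNRPN in WT and F2 and of L3MBTL1 in F2. SNRPN and SNURF share a transcript, so their counts may be split.

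**Figure D4:**
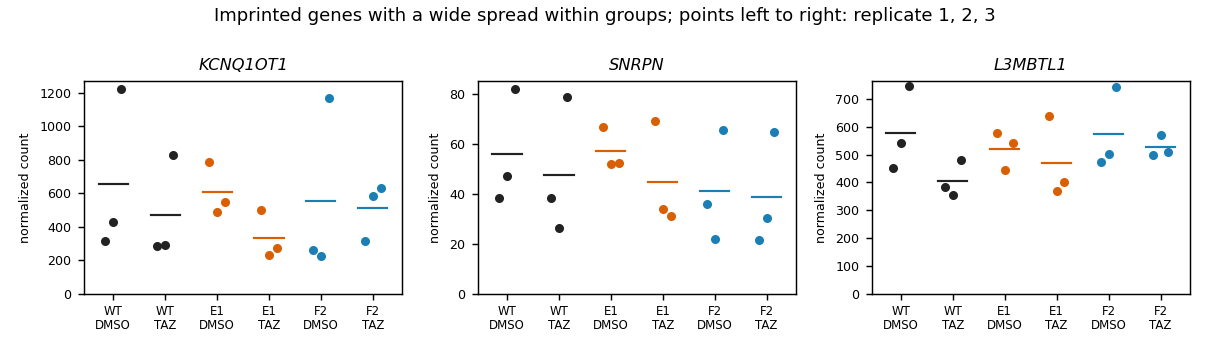
Normalized counts (linear axis from 0) of KCNQ1OT1, SNRPN and L3MBTL1 in each library, with replicates 1, 2 and 3 from left to right within a group and a line at the group mean. KCNQ1OT1 is at 1220.8 in WT DMSO replicate 3 and 1167.3 in F2 DMSO replicate 3, against 226.1 to 426.9 in the other libraries of those groups.

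The 13 members under the filter had few reads, and their ratios are bounds or carry large counting error. RTL1, a retrotransposon-derived gene of the 14q32 domain, had 1 read in 1 of the 9 DMSO libraries and 0 in the rest. With tazemetostat it had 3.0, 6.5 and 1.2 normalized counts in WT, 11.7, 10.6 and 8.5 in clone E1, and 17.5, 14.1 and 22.2 in F2, which is at least 1.30-fold, at least 3.63-fold and at least 5.48-fold higher. Its neighbour DLK1, a Notch-ligand-like protein, had 0 reads in DMSO and 4.3, 1.9 and 3.8 in E1 and 8.7, 3.0 and 5.5 in F2 with tazemetostat. MEG3, the maternal noncoding RNA of the same domain, had 7.8, 5.0 and 5.5 in F2 tazemetostat and at most 1 read in any other library. MEG8 had at most 1 read. In F2 tazemetostat, therefore, reads of RTL1, DLK1 and MEG3 were all present.

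CPA4, a maternally expressed carboxypeptidase of 7q32, was at 0.9, 0.0 and 0.9 normalized counts in WT DMSO and 34.5, 27.1 and 55.4 in WT tazemetostat, at least 14.1-fold higher. In E1 it had 5.4, 6.8 and 2.9 in DMSO and 5.3, 6.8 and 8.5 with tazemetostat, which overlap. In F2 it had 0 reads in DMSO and 9.7, 7.1 and 4.6 with tazemetostat, at least 2.18-fold higher. MEST, its paternally expressed neighbour, had 3.1 to 8.5 in the DMSO libraries of WT and F2, at most 1 read in those of E1, and 12.6, 11.1 and 17.6 in F2 tazemetostat. In WT tazemetostat MEST had 6.9, 3.7 and 12.3, overlapping WT DMSO. ZIM2, a neighbour of PEG3, had 13.4, 13.5 and 17.5 in E1 DMSO and 1.1, 1.0 and 3.8 in E1 tazemetostat, and 0.0 to 8.5 in the other groups. GRB10, an adaptor of insulin and IGF receptors, had 3.0, 4.7 and 8.6 in WT tazemetostat, 2.9 in F2 tazemetostat replicate 1 and 0 reads in every other library. USP29, NDN and MAGEL2 had at most 3.9 normalized counts in any library. The values of USP29 were 1.8, 3.9 and 1.9 in E1 DMSO and 1.1, 0.0 and 0.0 in E1 tazemetostat.

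The second comparison was between the lines without drug. In DMSO, 0 of 21 members were called between E1 and WT, where 2.35% of all tested genes were higher in E1 and 2.69% lower. At an unadjusted p under 0.05, 4 members were higher and 6 lower in E1, and edgeR and DESeq2 also called 0. At a limma adjusted p under 0.05 with no fold limit, 1847 of all 16154 genes were higher and 1893 lower in E1. Between F2 and WT 0 members were called, where 0.885% of all genes were higher and 2.09% lower. At an unadjusted p under 0.05, 3 members were higher and 4 lower in F2, and edgeR and DESeq2 each called 1, IGF2. At a limma adjusted p under 0.05 with no fold limit, 1308 of all 16154 genes were higher and 1952 lower in F2. IGF2 was lower in F2 than in WT by -0.97 ± 0.18 with limma (adjusted p 8.5e-04), just under the fold limit, and by -1.06 with edgeR and -1.07 with DESeq2. Limma called it too without F2 DMSO replicate 3 (-1.15), WT DMSO replicate 1 (-1.13) or WT DMSO replicate 3 (-1.07). Between the clones, ZDBF2 was higher in E1 than in F2 by 1.17 ± 0.12 (limma adjusted p 3.1e-07), and PEG10 was lower by -1.10 ± 0.07 (adjusted p 1.1e-09). DIRAS3 was lower by -1.24 ± 0.38 (adjusted p 0.015), a call lost without E1 DMSO replicate 2 (-0.99) or F2 DMSO replicate 3 (-0.90). It was also lost with a pseudocount of 5 (-0.94), with no filter on low values (adjusted p 0.055) and with only these groups in the fit (adjusted p 0.079). These are 1 higher and 2 lower of 21 members, where 4.05% and 3.52% of all genes were. DIRAS3 passed the filter only through F2, the higher clone, which favours its call.

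With tazemetostat in every library, more members were called between the clones and WT. In E1 against WT, DIRAS3, PEG3 and TFPI2 were higher and H19 was lower, 3 and 1 of 21, where 5.4% and 5.95% of all genes were. H19 was lower in E1 by -2.32 ± 0.40 (5.21-fold, limma adjusted p 1.1e-04). DIRAS3 was higher by 1.05 ± 0.38 (at least 1.66-fold, adjusted p 0.027), a call that edgeR and DESeq2 did not make (adjusted p 0.12 and 0.15) and that was lost without E1 tazemetostat replicate 2 or WT tazemetostat replicate 2. This call also ended with a pseudocount of 5 (0.53, limma adjusted p 0.1) and with no filter on low values (limma adjusted p 0.082). In F2 against WT, DIRAS3, H19, IGF2 and TFPI2 were higher and NAP1L5 was lower, 4 and 1 of 21, where 7.31% and 4.97% of all genes were. Of these, DIRAS3 passed the filter only through F2, and H19 and TFPI2 only through treated groups, so that the count favours higher members in F2. With the same total per library, 71.4% of all calls in that contrast were higher in place of 59.5%. IGF2 was higher in F2 by 1.35 ± 0.18 (2.55-fold, adjusted p 6.3e-06) and H19 by 1.55 ± 0.40 (2.93-fold, adjusted p 0.0035). DIRAS3 was higher by 2.11 ± 0.38 (at least 4.04-fold, adjusted p 1.3e-04), and NAP1L5 was lower by -1.29 ± 0.12 (2.47-fold, adjusted p 3.6e-08).

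The responses themselves differed for 5 members between E1 and WT. The difference was positive for 4 (IGF2, PEG10, TFPI2 and DIRAS3) and negative for H19, where 4.79% of all genes were higher and 5.21% lower. PEG10 and DIRAS3 fell in both lines, and their positive difference is a smaller fall in E1. The PEG10 level in DMSO was also lower in E1 than in WT. Between F2 and WT they differed for 6, with H19, IGF2, TFPI2, DIRAS3 and ZDBF2 higher and NAP1L5 lower, where 4.82% and 2.66% of all genes were. For DIRAS3 this was again a smaller fall, and for NAP1L5 a larger one. DESeq2 called neither TFPI2 nor DIRAS3 in these response differences from WT, and edgeR did not call TFPI2. With the same total per library, 75.6% of all calls in this contrast were higher in place of 64.5%. The count of 6 became 3 without F2 tazemetostat replicate 2 or without WT tazemetostat replicate 2. Between E1 and F2, TFPI2 had the larger response in E1 and H19 and IGF2 the larger in F2, 1 and 2 of 21, where 1.78% and 4.02% of all genes were. These contrasts share libraries with the comparisons above and are not independent of them. H19 and TFPI2 passed the filter only through treated groups and DIRAS3 only through F2, which the counts of members carry with them.

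Genes that bind, cut, carry or respond to IGF2 were followed as a list of 19, of which 17 were tested. With tazemetostat 8 were higher and 1 lower in WT, 9 and 0 in clone E1, and 9 and 1 in F2, with median log2 changes of 0.52, 1.96 and 1.60. Among all tested genes, 14.5%, 11.3% and 13.3% were higher and 6.77%, 3.78% and 3.71% lower in the lines in that order. IGFBP5, IGFBP7, IRS2, PAPPA and PAPPA2 had a DMSO mean under 10 and so passed the filter only through treated libraries, and with these 5 of 17 the counts and medians favour a rise. The 0 lower in E1 stands beside 4 lower at an unadjusted p under 0.05, and edgeR and DESeq2 also called 0. At a limma adjusted p under 0.05 with no fold limit, 3182 of all 16154 genes were lower in E1. Ranked by the largest change in any line, the first 5 were IGFBP5, IGFBP7, IGFBP3 and IGFBP2, which are IGF-binding or related proteins, and PAPPA, a protease that cuts some IGF-binding proteins to release ligand. In WT alone, PAPPA2 (5.83) and IRS2 (4.68) had larger log2 changes than IGFBP2 (4.47), and both are named after their values were seen. IGFBP5 went from 1.55 ± 1.1 normalized counts (SD, n = 3) to 3329 ± 263 in WT, from 3.15 ± 3.4 to 2284 ± 71 in clone E1, and from 2.99 ± 1.9 to 9864 ± 524 in F2. IGFBP7 went from 3.97 ± 0.34 to 4571 ± 472 in WT, from 1.27 ± 0.58 to 4223 ± 174 in clone E1, and from 2.64 ± 2.5 to 7638 ± 417 in F2. IGFBP3 went from 63.8 ± 48 to 11455 ± 383 in WT, from 0.944 ± 0.045 to 3183 ± 172 in clone E1, and from 2.47 ± 1.1 to 5019 ± 230 in F2. PAPPA had 0 reads in all DMSO libraries and 477 ± 30, 287 ± 42 and 415 ± 28 in treated WT, E1 and F2. IGFBP2 rose 22.2-fold in WT, 24.5-fold in clone E1 and 101-fold in F2. The lower gene was IGF2BP3, an RNA-binding protein that binds IGF2 mRNA, with -1.35 in WT, -0.81 in clone E1 and -1.23 in F2. It lies outside the rule for naming genes and was named after its values were seen.

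**Figure D5:**
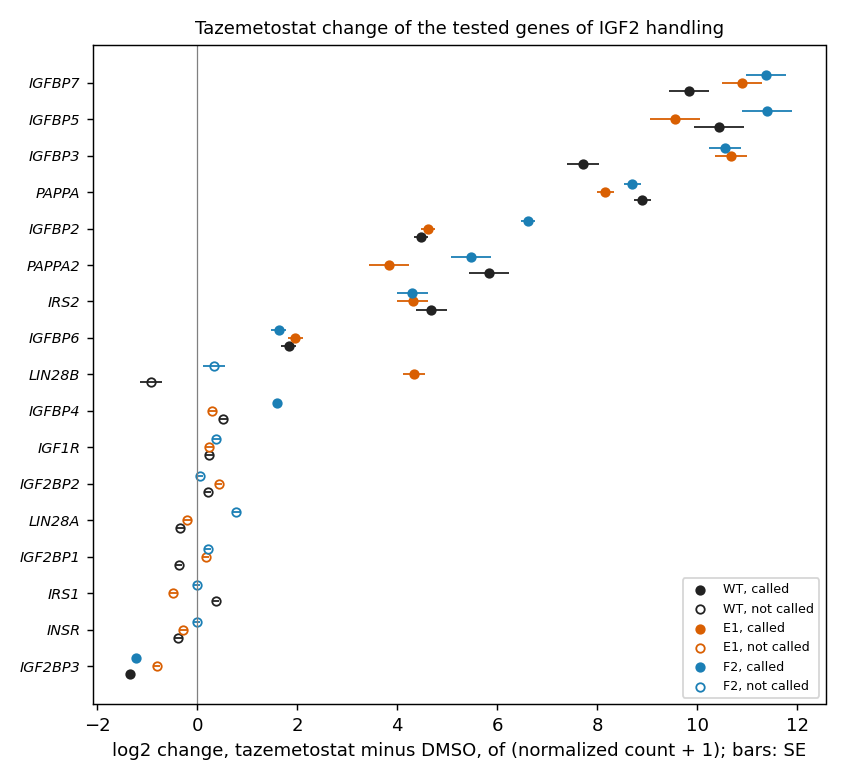
Log2 change with tazemetostat of the 17 tested genes of the IGF2 handling list in WT, E1 and F2 (x axis, log2(normalized count + 1) scale, bars showing the standard error), filled where called. IGFBP5, IGFBP7, IGFBP3 and PAPPA lie at 7.71 or more in every line, and IGF2BP3 lies below 0.

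The factors that keep imprints were a list of 17, of which 11 were tested. With tazemetostat 0 were higher and 2 lower in WT, and 0 in either direction in clone E1 and F2. Among all tested genes, 14.5%, 11.3% and 13.3% were higher and 6.77%, 3.78% and 3.71% lower in the lines in that order, and 0 of 11 in E1 and F2 lies near that background. At an unadjusted p under 0.05, 0 were higher and 8 lower in WT, 1 and 6 in clone E1, and 0 and 7 in F2. These counts have no like background here, and the shares above are at a stricter threshold. At a limma adjusted p under 0.05 with no fold limit, 4749, 3182 and 3754 of all 16154 genes were lower in WT, E1 and F2. At that limit 5618, 4372 and 4684 were higher. Of the 11 factors, edgeR called 2 lower in WT, 1 in clone E1 and 0 in F2, and DESeq2 called 2, 0 and 0. UHRF1, which recruits the maintenance methyltransferase DNMT1, changed by -1.59 ± 0.11 in WT (limma adjusted p 4.0e-10), -0.34 in clone E1 and -0.44 in F2. DNMT3B, a methyltransferase that sets new methylation, changed by -1.49 ± 0.08 in WT (adjusted p 9.1e-12), -0.99 in clone E1 and -0.98 in F2. The response of UHRF1 differed from that of WT by 1.25 ± 0.16 in E1 (adjusted p 7.3e-06) and 1.15 ± 0.16 in F2 (adjusted p 2.7e-05).

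A further 37 imprinted genes outside the 34 were listed, of which 34 were found by symbol and 16 tested. HYMAI, MESTIT1 and MCTS2P were not analysed here. With tazemetostat 3 were higher and 2 lower in WT, 3 and 1 in clone E1, and 2 and 1 in F2. These counts lie near the background of 14.5%, 11.3% and 13.3% higher and 6.77%, 3.78% and 3.71% lower, and KLF14 and SLC22A2 passed the filter only through treated libraries. SLC22A2, an organic cation transporter beside IGF2R, had 0 reads in DMSO and was at least 7.11-fold, at least 14.6-fold and at least 7.38-fold higher in WT, E1 and F2. KLF14, a transcription factor beside MEST, rose by 2.26, 2.96 and 1.89 on the log2 scale. KCNQ1, the potassium channel gene that KCNQ1OT1 overlaps, rose in E1 by 2.04 ± 0.51 (limma adjusted p 0.0028), and had -0.13 in WT and 1.17 in F2. Its levels in E1 were low, at 5.4, 5.8 and 0.0 normalized counts in DMSO and 13.8, 9.7 and 17.9 with tazemetostat. With the strand of the counting unknown, reads of KCNQ1OT1 may be among them. DGCR6 fell in E1 and F2, by 1.25 and 1.40 on the log2 scale, and had -0.38 in WT. SGK2, a kinase gene beside L3MBTL1, fell in WT by 1.12 on the log2 scale (adjusted p 0.038), and had -0.45 in E1 and 0.03 in F2.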

How the data were processed

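Poly(A) RNA of 18 G401 cultures was sequenced, 3 libraries in each of 6 groups. Reads were trimmed with Trim Galore 0.4.4, and STAR 2.6.0a, HTSeq, DESeq2 and hg19 are also named, per the submitters' processing notes. The annotation and the strand setting of the counting are not given in the sources used here. The deposited signal values are the counts of each library after division by its size factor (0.812 to 1.1449). Whole reads were recovered for 100% of values within 1e-06 reads, 25709489 to 39314860 per library, and floors cover counting error only. Values after ± are limma standard errors or, where marked SD, standard deviations of 3 libraries, and reflect the spread between libraries.

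Values were tested as log2(value + 1) with limma 3.58.1 in R 4.3.3 (trended empirical Bayes, 6 group means, all 18 libraries, 11 contrasts, Benjamini-Hochberg adjustment over 16154 genes with a mean of at least 10). A fold change on this scale understates changes of low genes. Folds in the text are ratios of group means, or lower bounds against a floor of 3 reads per library. edgeR 4.0.16 and DESeq2 1.42.0 on the recovered reads, other pseudocounts, filters and scalings, a replicate block and leaving out each library were alternatives. The scripts were tested on simulated data. Figures were drawn with matplotlib 3.10.9.

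The members and lists were chosen with earlier results of these data known. Members called in at least 1 contrast are given by library and the others by range or log2 change, with single libraries added for members of wide spread or low level, and from each further list at most the 5 called genes with the largest change in any line. The correlation of deviations between same-numbered libraries was over 0.1 in all 3 pairs only between F2 and WT in DMSO (0.182, 0.108 and 0.375). In WT with and without tazemetostat it was 0.096, 0.05 and 0.315.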

Additional observations from a re-analysis of the deposited data

Results flagged for a closer look

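Several members responded to tazemetostat unequally in the lines, by a limma test of the difference itself, as a difference of log2 changes. In E1 minus WT the differences were 1.21 for IGF2, -2.20 for H19, 1.09 for PEG10, 2.62 for TFPI2 and 1.81 for DIRAS3. IGF2 and H19 thus differed in opposite directions in this clone. In F2 minus WT they were 2.32 for IGF2, 1.68 for H19, 1.01 for TFPI2, 1.63 for DIRAS3, 1.19 for ZDBF2 and -1.12 for NAP1L5. In E1 minus F2 they were -3.89 for H19, -1.12 for IGF2 and 1.61 for TFPI2. Differences of TFPI2 and DIRAS3 rest on groups at or near the floor of 3 reads per library. The positive differences of PEG10 and DIRAS3 from WT are smaller falls, not rises.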

How the results depend on the processing

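Each fit that left out 1 library gave a count of called members for several contrasts. Of these 84 counts, which are not independent, 78 stayed within 1.5 times the count with all libraries. The count ran from 0 to 1 for E1 against WT in DMSO, from 0 to 1 for F2 against WT in DMSO, and from 3 to 6 for the response of F2 minus WT. With the replicate block, the counts were 8, 4 and 7 with tazemetostat in WT, E1 and F2, then 0, 0 and 3 in DMSO for E1 against WT, F2 against WT and E1 against F2, 4 and 5 under tazemetostat for E1 and F2 against WT, and 5, 6 and 3 for the response differences E1 minus WT, F2 minus WT and E1 minus F2. The block changed no call: 45 of 45 called gene changes stayed called.

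With no fold change limit, the counts in the same order were 15, 13, 14, 7, 6, 9, 12, 13, 12, 11 and 10 of 21. Among all 16154 tested genes they were 10367, 7554, 8438, 3740, 3260, 5997, 8373, 8573, 5720, 4344 and 2384. With no filter on low values, all 34 members entered, among 35344 genes. Members called were then 8 for E1 and 11 for F2 with tazemetostat, where 4082 and 4698 of all genes were. In DMSO they were 4 for E1 against WT and 6 for E1 against F2, where 1018 and 1657 of all genes were. Under tazemetostat they were 8 and 10 for E1 and F2 against WT, where 3130 and 3273 of all genes were. For the responses of E1 minus WT and E1 minus F2 they were 9 and 5, where 2026 and 1129 of all genes were. F2 against WT in DMSO gave 1 with a pseudocount of 0.5, by edgeR and by DESeq2. The response of E1 minus WT gave 3 by DESeq2. Of the 45 called changes, 41 stayed called by edgeR, 39 by DESeq2, 40 with a pseudocount of 5 and 43 with the same total per library.

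Signs turned for uncalled changes with tazemetostat. When 1 library was left out, KCNQ1OT1 ran from -0.92 to 0.16 in WT and -0.19 to 1.00 in F2, SNRPN from -0.72 to 0.05 in WT and -0.53 to 0.31 in F2, L3MBTL1 from -0.22 to 0.11 in F2, UBE3A from -0.12 to 0.03 in E1, and PLAGL1 from -0.06 to 0.06 in E1. KCNQ1OT1 in F2 was -0.11 by edgeR and -0.12 by DESeq2. PLAGL1 in E1 was -0.06 with the same total, -0.01 with TMM scaling and -0.00 by edgeR. The cause was not tested. Depth limits the 13 untested members and DIRAS3, H19 and IGF2 in DMSO, whose libraries hold few reads.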
